A study of Mus musculus with 8 samples.

Results

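The Stat and Socs genes carry signals from cytokine receptors to the nucleus and switch them off again. Of 9 such genes of the mouse (Stat2, Stat3, Stat4, Stat5a, Stat5b, Stat6, Socs1, Socs2 and Socs3), out of 18193 genes named on the array, all probe sets that the platform annotation assigns to 1 of them were taken, which gave 23 of 45101 probe sets. The arrays measured conventional dendritic cells, the professional antigen-presenting cells of the spleen, sorted as CD8α+ or CD8α- cells from untreated female C57BL/6 mice that were wild type or RAG2-/-. RAG2-/- mice cannot rearrange antigen receptor genes and therefore lack mature T and B lymphocytes, while their natural killer cells and myeloid cells remain. The labels give an age of 10 weeks for all mice and the series' design text a range of 8 to 10 weeks. Each of the 4 groups had 2 arrays, 8 in all, and the title of the series places the question in how lymphocytes bear on these cells. The labels do not say whether the 2 arrays of a group came from separate mice or from pooled mice, so p-values measure the spread between arrays, which may be technical.

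Cytokine receptors of the type I and type II families hold Janus kinases on their tails, and a bound cytokine leads these kinases to phosphorylate STAT proteins (signal transducers and activators of transcription). Phosphorylated STATs pair, enter the nucleus and bind DNA at inverted repeats of TTC and GAA. SOCS proteins (suppressors of cytokine signalling) are themselves induced by STATs, bind the receptors or kinases and shut the signal down. In dendritic cells these routes carry the growth factor GM-CSF, interferons, IL-4, IL-6, IL-10 and IL-12.

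Levels below are log2 values per probe set, as deposited, and group levels are the mean ± SD of 2 arrays. A probe set was tested where it reached log2 5 on at least 2 of the 8 arrays, and was called at a Benjamini-Hochberg adjusted p under 0.05 from limma over all 16939 probe sets tested. Of the 23 member probe sets, 13 from 8 genes were tested, and 8 of the other 10 stayed below 5 on all arrays. The filter needed only 1 group to be bright. Levels were compared between groups for the same probe set only. In sorted bulk samples, fewer cells that express a gene and less RNA per cell cannot be told apart.

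The markers of the sort followed the labels. Cd8a stood between 11.73 and 12.51 on the CD8α+ arrays and between 5.80 and 7.70 on the CD8α- arrays, and Cd4 between 2.76 and 4.15 and between 7.83 and 11.23. On the log2 scale the summed level of 8 CD8α+ dendritic cell markers was 15.624 to 15.995 on CD8α+ arrays. It was 13.958 on knockout CD8α- replicate 2 and 12.24 to 13.023 on the other CD8α- arrays. For 6 CD8α- dendritic cell markers it was 13.561 to 14.34 on CD8α- arrays and 9.436 to 9.894 on CD8α+ arrays. The part of the higher CD8α+ markers on that 1 array in the knockout subset differences was not tested. All 6 markers of conventional dendritic cells were at or above 5 on all arrays. Rag2 was below 5 on all 8 arrays, so it does not check the genotype. The 2 genotypes were evidently processed apart: between 18217 and 18893 probe sets shared 1 lowest value, 2.23, on each knockout array, against a single probe set at the lowest value of each wild type array, so genotype and processing cannot be told apart in any comparison of genotypes. Of 9 neutrophil markers with a probe set, 7 reached 5 on knockout CD8α- replicate 2 and 6 on knockout CD8α+ replicate 1, against 0 or 1 on the other 6 arrays. On the log2 scale their summed level was 13.03 and 11.60 on those 2 arrays and 5.94 to 6.70 elsewhere, and the called member changes that involve the knockout are also given without both arrays. Of 7 plasmacytoid dendritic cell markers with a probe set, 6 reached 5 on knockout CD8α+ replicate 2 and 3 to 5 on the other arrays. Their summed level was 11.75 there and 10.73 to 11.27 elsewhere. Siglech read 5.36 there and 2.25 to 3.20 elsewhere. That array is the only knockout CD8α+ array in the fits without both arrays with neutrophil transcripts.

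Promoters of 3 genes are shown: that of Stat4, the member with the largest subset difference, and those of Stat2 and Socs3, the members with a match. Each is the 250 bases upstream of the RefSeq transcription start (GRCm38.p6), read 5′ to 3′ on the gene's strand, with capitals where an inverted repeat of the STAT type was found. The patterns searched were TTCNNNGAA and the same repeat with a spacer of 4 letters in place of 3, each of which reads the same on both strands, in windows of 250 bases before to 50 bases after each start. A match of one pattern may overlap a match of the other.
Stat4, chr1:51986898-51987147, plus strand: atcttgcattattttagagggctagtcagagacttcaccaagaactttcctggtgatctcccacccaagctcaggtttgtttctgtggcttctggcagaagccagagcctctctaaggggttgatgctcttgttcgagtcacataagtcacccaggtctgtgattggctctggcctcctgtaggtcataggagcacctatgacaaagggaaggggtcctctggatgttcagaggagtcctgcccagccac
Stat2, chr10:128270248-128270497, plus strand: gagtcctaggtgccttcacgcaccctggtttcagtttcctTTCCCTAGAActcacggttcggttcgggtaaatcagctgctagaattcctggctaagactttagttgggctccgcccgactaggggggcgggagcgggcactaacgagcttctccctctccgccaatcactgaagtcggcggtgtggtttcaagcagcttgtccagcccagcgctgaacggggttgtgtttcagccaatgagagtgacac
Socs3, chr11:117969367-117969616, minus strand: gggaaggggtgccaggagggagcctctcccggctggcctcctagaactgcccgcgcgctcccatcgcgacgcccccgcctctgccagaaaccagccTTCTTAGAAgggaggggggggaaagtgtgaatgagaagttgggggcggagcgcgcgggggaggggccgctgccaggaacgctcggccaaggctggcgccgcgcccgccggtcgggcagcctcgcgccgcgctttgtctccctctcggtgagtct
The Stat2 match, TTCCCTAGAA, lay 210 to 201 bases before the start, and the Socs3 match, TTCTTAGAA, lay 154 to 146 bases before it. The Stat4 window held neither pattern. Among 11 windows of 8 member genes, 1 held the shorter pattern (Socs3) and 1 the longer (Stat2). Over all 32851 windows of the table, 2726 (8.3%) held the shorter pattern and 2284 (6.95%) the longer. The member matches describe these letters only. Stat5b, Stat5a and Stat3 lie side by side on chromosome 11, as consecutive protein-coding genes.

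CD8α+ cells carried less Stat4 than CD8α- cells in both genotypes, and no member was called higher in CD8α+ cells. In wild type mice 1 of the 13 member probe sets was called lower and 0 higher, against a background of 5.74% of all probe sets called lower and 6.98% called higher. In the knockout 3 were called lower (Stat4, Stat5b and Socs3) and 0 higher, against 8.47% and 7.69% of all probe sets. Before adjustment, 4 member probe sets in wild type and 5 in the knockout had a limma p under 0.05, against 4310 (25.4%) and 5259 (31.0%) of all 16939. The median change over the 13 was -0.35 in each genotype, against 0.02 and -0.01 over all probe sets tested. Without the 2 knockout arrays with neutrophil transcripts, Stat4 alone of these 3 was called in the knockout.

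**Figure D1:**
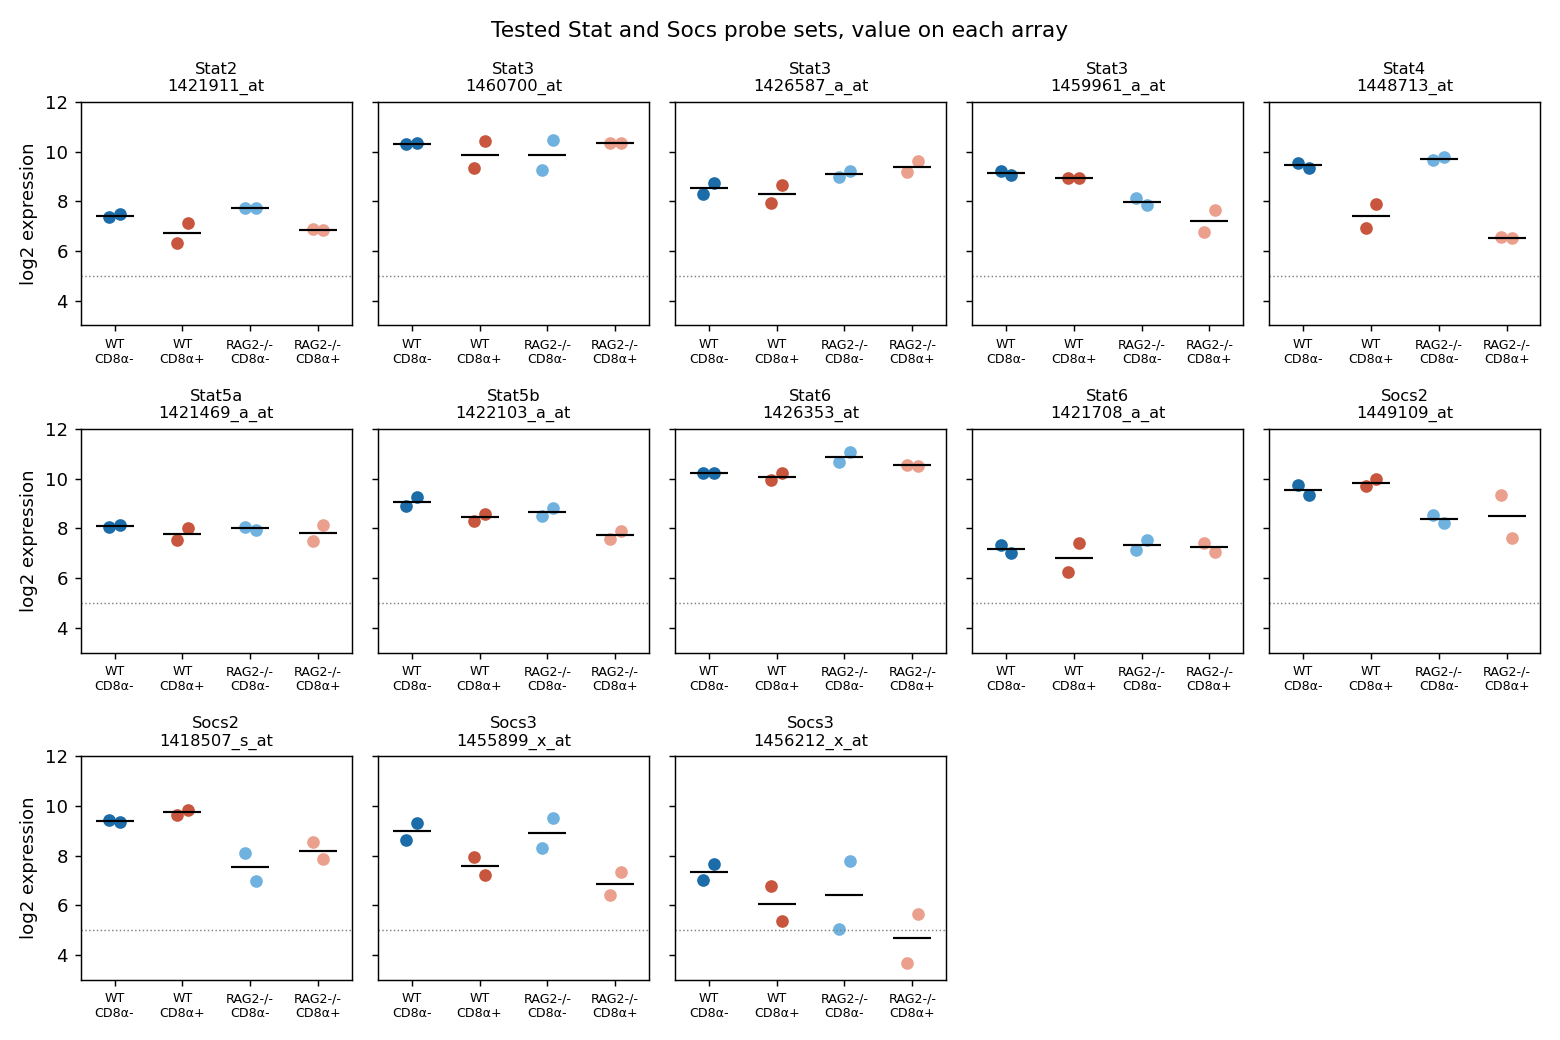
Log2 level of each tested Stat and Socs probe set on each of the 8 arrays (points), with the mean of the 2 arrays of a group as a bar and the filter level of 5 as a dotted line. Stat4 shows the widest gap, with the 4 CD8α- arrays between 9.35 and 9.77 and the 4 CD8α+ arrays between 6.51 and 7.91.

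Stat4 relays IL-12 signals and is known for driving interferon-γ production. Its only probe set, 1448713_at, read 9.55 and 9.35 on the wild type CD8α- arrays, against 6.94 and 7.91 on those of wild type CD8α+ cells. In the knockout it read 9.64 and 9.77 in CD8α- cells and 6.54 and 6.51 in CD8α+ cells. The highest CD8α+ array therefore lay below the lowest CD8α- array, and the subsets did not overlap in either genotype. The level in CD8α+ cells was 4.08-fold lower in wild type (log2 change -2.03, SE 0.32, adjusted p = 0.00856) and 9.07-fold lower in the knockout (-3.18, SE 0.32, adjusted p = 0.0014). The wild type call was lost without wild type CD8α- replicate 1 (adjusted p = 0.0740) or replicate 2 (0.0542), and the knockout call held when any single array was left out. Without the 2 arrays with neutrophil transcripts the knockout change was -3.14 (adjusted p = 0.0449).

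In order of mean level, Stat4 ran from knockout CD8α- cells (9.71 ± 0.09) through wild type CD8α- cells (9.45 ± 0.14) and wild type CD8α+ cells (7.42 ± 0.69) to knockout CD8α+ cells (6.53 ± 0.02). The CD8α- cells of the 2 genotypes differed by 0.26 (95% confidence interval -0.50 to 1.01, adjusted p = 0.558). In CD8α+ cells the knockout value was 0.90 below wild type on the log2 scale (change -0.90, interval -1.65 to -0.14), with an adjusted p of 0.0675. Centring each array on the median of all its probe sets raised the knockout values relative to wild type, as described below. With it the Stat4 change was 0.91 in CD8α- cells, which was then called (adjusted p = 0.0461), and -0.22 in CD8α+ cells (adjusted p = 0.585). The interaction, which asks whether the subset difference itself differed between genotypes, was -1.15 (interval -2.22 to -0.09, adjusted p = 0.719).

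Natural killer and T cells also express Stat4, and their markers were read on the same arrays. The summed level of 8 natural killer markers was 13.03 to 13.57 in CD8α- cells and 10.59 to 11.49 in CD8α+ cells. Klrd1, which read 12.99 to 13.47 and 10.18 to 11.25, was the brightest of them except on knockout CD8α+ replicate 1. There Gzma read 10.41 and Klrd1 10.18. Ncr1 lay between 2.23 and 2.32 on 7 arrays and at 4.55 on knockout CD8α- replicate 2, and Prf1 reached at most 3.38. Gzma, a granzyme, was bright on all arrays, at 8.50 to 11.53 in the knockout and 5.52 to 7.58 in wild type. Klrk1 read 6.54 to 8.13 in CD8α+ cells and 4.12 to 7.45 in CD8α- cells. Knockout CD8α- replicate 2 stood highest for Nkg7 (7.28), Gzmb (6.04) and Eomes (5.63), against at most 5.05, 3.19 and 4.03 elsewhere. Of the 8 markers, 6 reached 5 on knockout CD8α- replicate 2 and 2 to 4 on each of the other arrays. Of 9 T cell markers, 0 to 3 reached 5 on an array, and Cd3e, a chain of the T cell receptor complex, read 2.79 to 3.47 throughout. The 3 that reached 5 were Cd5, at 3.78 to 7.75, Bcl11b, at 5.80 to 6.97 in wild type and 3.85 to 4.63 in the knockout, and Cd3d, at 5.56 on wild type CD8α+ replicate 2 only. The summed T cell level in wild type was 8.42 to 8.73 for CD8α- and 7.94 to 7.98 for CD8α+ arrays, and 7.52 to 7.80 and 6.09 to 6.62 in the knockout. The part of these cells in the Stat4 difference was not tested.

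Stat5b, which with Stat5a relays GM-CSF and common γ-chain cytokines, was lower in knockout CD8α+ than CD8α- cells. Probe set 1422103_a_at read 8.92 and 9.25 in wild type CD8α- cells, against 8.32 and 8.56 in CD8α+ cells of the same genotype. In the knockout it read 8.49 and 8.80 in CD8α- cells and 7.57 and 7.89 in CD8α+ cells. The subsets did not overlap in either genotype. The change was -0.91 in the knockout (SE 0.23, adjusted p = 0.0404, a 1.89-fold difference) and -0.64 in wild type (adjusted p = 0.135). The knockout call was lost whichever of the 8 arrays was left out, with adjusted p from 0.0640 to 0.166. Without the 2 arrays with neutrophil transcripts the change was -0.60 (adjusted p = 0.249).

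By mean level Stat5b ran from wild type CD8α- cells (9.08 ± 0.23) through knockout CD8α- (8.65 ± 0.22) and wild type CD8α+ cells (8.44 ± 0.17) to knockout CD8α+ cells (7.73 ± 0.23). The genotypes differed by -0.44 in CD8α- cells (adjusted p = 0.180) and by -0.71 in CD8α+ cells (adjusted p = 0.0535), neither of them called. In CD8α+ cells quantile normalization called the difference (-0.71, adjusted p = 0.0418) and centring took it to -0.03 (adjusted p = 0.922). The second Stat5b probe set, 1422102_a_at, lay between 2.23 and 2.54 on all arrays and gave no second reading.

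Socs3 encodes the inhibitor that binds gp130 and limits IL-6 family signals. Probe set 1455899_x_at read 8.64 and 9.31 on the wild type CD8α- arrays, against 7.93 and 7.21 in CD8α+ cells. In the knockout the readings were 8.29 and 9.51 against 6.40 and 7.32. All 4 CD8α+ arrays lay below all 4 CD8α- arrays. The change was -2.04 in the knockout (SE 0.52, adjusted p = 0.0438, a 4.11-fold difference) and -1.40 in wild type (SE 0.52, adjusted p = 0.151). When single arrays were left out, the knockout call held only without knockout CD8α- replicate 1 and was lost without each of the other 7 (adjusted p from 0.0649 to 0.192). The highest knockout CD8α- array and the lowest knockout CD8α+ array were the 2 with neutrophil transcripts. Without them the change was -0.97 (adjusted p = 0.309), and their part in it was not tested further.

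A second Socs3 probe set, 1456212_x_at, read 7.0 and 7.68, 6.76 and 5.36, 5.03 and 7.77, and 3.67 and 5.66 in the same order of groups. Its changes were -1.28 in wild type and -1.74 in the knockout, with intervals from -3.75 to 1.19 and from -4.21 to 0.73, and neither was called. In the knockout its sign turned to 0.62 without the 2 arrays with neutrophil transcripts (adjusted p = 0.671). The third, 1416576_at, stayed between 2.07 and 2.31. The suffix x_at marks probe sets in which some probes also match other transcripts, and both bright Socs3 probe sets carry it, so the Socs3 level is uncertain. By mean level 1455899_x_at ran from wild type CD8α- (8.97 ± 0.48) and knockout CD8α- (8.90 ± 0.86) to wild type CD8α+ (7.57 ± 0.51) and knockout CD8α+ cells (6.86 ± 0.65), and the genotypes did not differ beyond their spread in either subset (adjusted p = 0.927 and 0.329).

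Stat2 joins Irf9 in the complex that answers type I interferon. Probe set 1421911_at read 7.35 and 7.49 on the wild type CD8α- arrays, against 6.30 and 7.13 in CD8α+ cells. In the knockout it read 7.71 and 7.71 against 6.87 and 6.84. Every CD8α+ array was below every CD8α- array. The changes were -0.71 in wild type (adjusted p = 0.172) and -0.85 in the knockout (adjusted p = 0.0869), and neither was called alone. The second probe set, 1450403_at, reached 5 on 1 array and was not tested. By mean level Stat2 ran from knockout CD8α- (7.71 ± 0.00) and wild type CD8α- (7.42 ± 0.10) to knockout CD8α+ (6.86 ± 0.02) and wild type CD8α+ cells (6.72 ± 0.59). The genotypes differed by 0.29 in CD8α- cells, where their arrays did not overlap, and by 0.14 in CD8α+ cells, where they did, and neither was called (adjusted p = 0.452 and 0.720). With centring the CD8α- difference was called (0.94, adjusted p = 0.0293).

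The mean of the subset differences of both genotypes, a comparison added after the data were seen, called 4 member probe sets lower and 0 higher, against 12.2% and 13.1% of all probe sets. They were Stat4 (-2.60, SE 0.22, adjusted p = 0.00038), Socs3 1455899_x_at (-1.72, SE 0.37, adjusted p = 0.0161), Stat5b (-0.78, SE 0.16, adjusted p = 0.0143) and Stat2 (-0.78, SE 0.20, adjusted p = 0.0293). Arrays of the subsets did not overlap, with CD8α+ lower in both genotypes, for 5 of the 13, these 4 and Stat3 1459961_a_at, against 16.9% of all probe sets. None of the 13 was so separated in the other direction, against 18.7%. Leaving out the 2 arrays with neutrophil transcripts, Stat4 held (-2.58, adjusted p = 0.015), while Socs3 (-1.19, adjusted p = 0.075), Stat5b (-0.62, 0.077) and Stat2 (-0.79, 0.128) were not called. When 1 array was left out, the Stat4 call held in 8 of 8 fits, Stat5b in 6, Socs3 in 5 and Stat2 in 2. Stat5b was lost without wild type CD8α+ replicate 1 (0.051) or CD8α- replicate 2 (0.0577), and Socs3 without wild type replicate 2 of either subset (0.0712 and 0.0679) or knockout CD8α+ replicate 1 (0.0545). Stat2 was lost without either wild type CD8α- array (0.0786 and 0.102) or any knockout array (0.0628 to 0.0749).

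**Figure D2:**
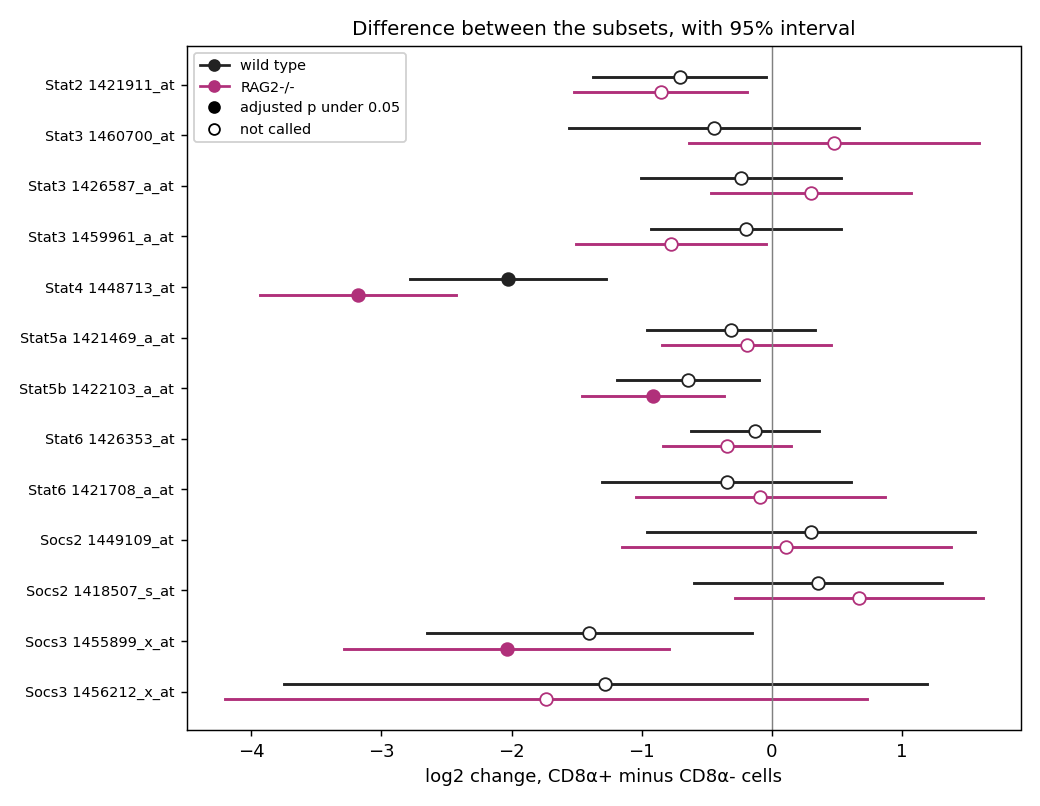
Log2 change of each tested member probe set, CD8α+ minus CD8α- cells, with 95% confidence intervals from limma, in wild type and RAG2-/- mice. Stat4 lies at -2.03 and -3.18, while Stat3, Stat5a, Stat6 and Socs2 intervals cross 0 in wild type.

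Stat3, Stat5a, Stat6 and Socs2 were not called between the subsets in either genotype. Stat3 relays IL-6, IL-10 and Flt3 ligand signals, and its brightest probe set, 1460700_at, changed by -0.44 in wild type (interval -1.56 to 0.67) and 0.48 in the knockout (interval -0.64 to 1.6). Stat3 1459961_a_at, whose subsets did not overlap, changed by -0.20 (interval -0.93 to 0.53) and by -0.78 in the knockout (interval -1.51 to -0.05, adjusted p = 0.141). Stat5a 1421469_a_at changed by -0.31 (interval -0.96 to 0.34) and -0.19 (interval -0.84 to 0.46). Stat6, the relay of IL-4 and IL-13, changed by -0.13 (interval -0.62 to 0.36) and -0.35 (interval -0.84 to 0.15) on 1426353_at. Socs2, an inhibitor known from growth hormone signalling, changed by 0.36 (interval -0.59 to 1.31) and 0.67 (interval -0.28 to 1.62) on 1418507_s_at, and by 0.30 (interval -0.96 to 1.57) and 0.11 (interval -1.15 to 1.38) on 1449109_at. Several of these intervals reach beyond a change of 1 on the log2 scale.

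Between genotypes, Socs2 and 1 Stat3 probe set were lower in the knockout in both subsets, and another Stat3 probe set and Stat6 were higher in 1 subset each. In CD8α- cells 1 of 13 member probe sets was called higher and 2 lower, against 19.1% and 16.6% of all probe sets. In CD8α+ cells 1 was called higher and 2 lower, against 16.7% and 17.3%. Centring each array on its median moved the median change of all probe sets. It went from 0.09 to 0.77 in CD8α- cells and from -0.02 to 0.69 in CD8α+ cells. Of the 13 member probe sets, 5 were then called higher and 1 lower in CD8α- cells, against 47.3% and 5.81% of all probe sets. In CD8α+ cells 3 were called higher and 1 lower, against 44.2% and 5.77%. The share of all calls that were higher was then 89.1% and 88.5%, against 53.4% and 49.2% for the values as deposited, so the genotype changes below are relative to the deposited scale. Centring used the median of the whole array, which lay at 2.97 to 3.06 in wild type and 2.33 to 2.38 in the knockout. Over the probe sets tested, the deposited medians were 7.997 to 8.105 and 8.051 to 8.158. Centring thus raised all knockout values relative to wild type, by a shift taken from probe sets below the filter level. Genotype calls lost or gained with centring carry that shift. Of 10 macrophage markers, 9 or 10 reached 5 on the knockout arrays and 5 or 6 on the wild type arrays, with summed levels of 13.33 to 14.58 and 12.20 to 12.87. Of 9 B cell markers, 3 or 4 reached 5 on the knockout arrays and 7 on the wild type arrays, with summed levels of 12.22 to 13.54 and 13.31 to 14.23, and Cd79a and Pax5 were at 2.08 to 2.47 on all arrays. Ighm was bright on all arrays (12.06 to 13.43). Ms4a1 read 10.15 to 11.05 in wild type and 5.81 to 7.62 in the knockout, and Jchain 9.32 to 10.56 and 2.23 to 6.12. Cd22 and Cd79b were higher on the CD8α- arrays of each genotype, with Cd22 at 11.72 to 12.57 against 5.15 to 8.14. The part of those cells in the member changes was not tested.

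Stat3 gave opposite readings from its probe sets. On 1459961_a_at it read 9.21 and 9.05 in wild type CD8α- cells against 8.13 and 7.84 in the knockout, and 8.94 and 8.92 in wild type CD8α+ cells against 6.76 and 7.66. The knockout arrays were all below the wild type arrays, with changes of -1.14 in CD8α- cells (SE 0.31, adjusted p = 0.0287) and -1.72 in CD8α+ cells (SE 0.31, adjusted p = 0.00815). On 1426587_a_at the same cells read 8.30 and 8.75 against 8.96 and 9.23, and 7.92 and 8.66 against 9.16 and 9.63. The knockout arrays were all above the wild type arrays here, with changes of 0.57 in CD8α- cells (adjusted p = 0.208) and 1.11 in CD8α+ cells (SE 0.32, adjusted p = 0.0393). The brightest, 1460700_at, read 10.29 and 10.36 against 9.26 and 10.47, and 9.35 and 10.41 against 10.36 and 10.34, with changes of -0.46 (interval -1.57 to 0.66) and 0.47 (interval -0.65 to 1.58) and overlapping arrays. A change in total Stat3 therefore cannot be read from these probe sets. The suffix a_at marks probe sets that match several transcripts of 1 gene.

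The fall on 1459961_a_at in CD8α- cells was lost with centring (-0.48, adjusted p = 0.216) and without either wild type CD8α- array, either wild type CD8α+ array or either knockout CD8α- array (adjusted p from 0.0540 to 0.134). Leaving out both arrays with neutrophil transcripts, the changes on this probe set were -1.0 in CD8α- cells (adjusted p = 0.0294) and -1.27 in CD8α+ cells (adjusted p = 0.0234). The fall in CD8α+ cells was lost only without wild type CD8α+ replicate 1 (0.0505) among the single arrays. The rise on 1426587_a_at held only without wild type CD8α+ replicate 2 and was lost without any of the other 7 arrays (0.0519 to 0.181). It was also lost without both arrays with neutrophil transcripts (1.34, adjusted p = 0.0842) and in a fit of only the groups compared (adjusted p = 0.0907). With centring this probe set was called higher in both subsets (1.23 and 1.78, adjusted p = 0.0205 and 0.00549).

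Socs2 was lower in the knockout on 1418507_s_at, which read 9.41 and 9.35 in wild type CD8α- cells against 8.09 and 6.97 in the knockout, and 9.63 and 9.84 in wild type CD8α+ cells against 8.55 and 7.85. The arrays of the genotypes did not overlap in either subset. The change was -1.85 in CD8α- cells (SE 0.40, adjusted p = 0.014, a 3.60-fold difference) and -1.54 in CD8α+ cells (SE 0.40, adjusted p = 0.0272, a 2.90-fold difference). On 1449109_at the readings were 9.75 and 9.34 against 8.55 and 8.20, and 9.72 and 9.97 against 9.36 and 7.62. These also did not overlap, with changes of -1.17 (interval -2.43 to 0.09, adjusted p = 0.129) and -1.36 (interval -2.62 to -0.10, adjusted p = 0.0895). Without the 2 arrays with neutrophil transcripts the change in CD8α+ cells was -1.88 on the first probe set and -2.23 on the second. In CD8α- cells it was -1.29 and -0.99. The single knockout CD8α+ array then left, replicate 2, had the most plasmacytoid markers at 5 and the lower Socs2 readings of its group. The part of plasmacytoid cells in these changes was not tested.

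The Socs2 call on 1418507_s_at in CD8α- cells was lost without wild type CD8α- replicate 1 (0.0787) or replicate 2 (0.0686) and in a fit of only the groups compared (0.0531). In CD8α+ cells it was lost with centring (-0.86, adjusted p = 0.102), without any single wild type array (0.0563 to 0.116) and without knockout CD8α+ replicate 2 (0.120). The suffix s_at marks probe sets that may match transcripts of more than 1 gene. The other 4 Socs2 probe sets were not tested: 3 stayed below 5 on all arrays and 1446085_at reached 5 on 1 array.

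**Figure D3:**
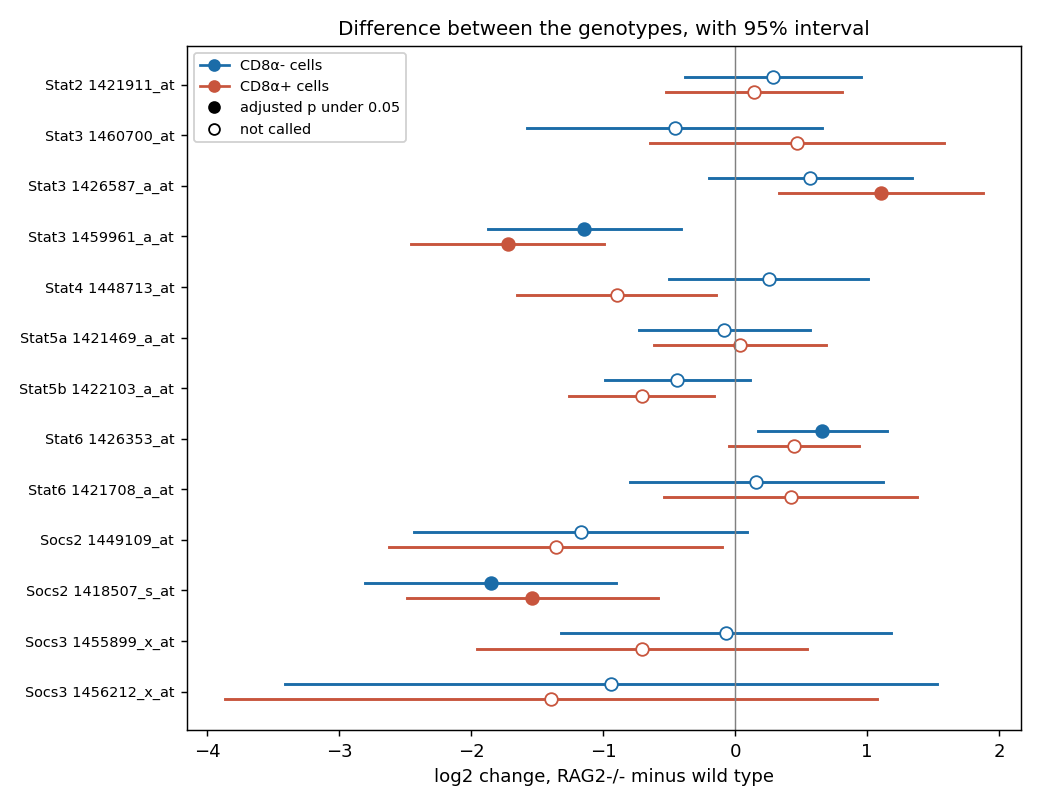
Log2 change of each tested member probe set, RAG2-/- minus wild type, with 95% confidence intervals from limma, in CD8α- and CD8α+ cells. Socs2 1418507_s_at lies at -1.85 and -1.54, and the 3 Stat3 probe sets lie on different sides of 0.

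Stat6 1426353_at read 10.22 and 10.22 in wild type CD8α- cells against 10.69 and 11.07 in the knockout, and 9.94 and 10.24 in wild type CD8α+ cells against 10.55 and 10.52. The knockout arrays were above the wild type arrays in both subsets. The change was 0.66 in CD8α- cells (SE 0.21, adjusted p = 0.0457, a 1.58-fold difference) and 0.45 in CD8α+ cells (adjusted p = 0.138). The call was lost with quantile normalization (0.44, adjusted p = 0.146) and held only without knockout CD8α- replicate 1 when single arrays were left out (0.0543 to 0.160 without each of the other 7). It was also lost without both arrays with neutrophil transcripts (0.47, adjusted p = 0.159), with the replicate block (adjusted p = 0.0552) and in a fit of only the groups compared (adjusted p = 0.0839). With centring both subsets were called higher (1.32 and 1.12, adjusted p = 0.00322 and 0.00628). The second probe set, 1421708_a_at, read 7.34 and 6.99 against 7.12 and 7.54, and 6.23 and 7.41 against 7.42 and 7.06. Its arrays overlapped between the genotypes in both subsets, and its changes of 0.16 (interval -0.80 to 1.12) and 0.42 (interval -0.54 to 1.38) were not called.

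Stat5a 1421469_a_at was called in no comparison. It read 8.06 and 8.12 on the wild type CD8α- arrays, against 7.55 and 8.01 in CD8α+ cells. The knockout arrays read 8.07 and 7.95, against 7.49 and 8.14. The genotype changes were -0.08 (interval -0.73 to 0.57) and 0.04 (interval -0.61 to 0.69). The second Stat5a probe set stayed between 2.23 and 2.34. Socs1, the inhibitor of interferon-γ signalling, has 1 probe set here, which lay between 1.69 and 2.23 on all arrays, at or near the lowest values of the arrays, so no level or difference could be read for it.

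The interaction of genotype and subset was called for 0 of the 13 member probe sets by limma, against 0.0295% of all probe sets (5 of 16939). At an unadjusted p under 0.05 there was 1 member, Stat4, and 1126 of all probe sets.

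The other genes of the route were read from lists of 67 genes, of which 64 had a probe set and 52 were tested, with the brightest probe set standing for each. Between the subsets 3 were higher and 6 lower in CD8α+ cells of wild type mice, against 6.98% and 5.74% of all probe sets. In the knockout 2 were higher and 13 lower, against 7.69% and 8.47%. Their median change was -0.15 and -0.22, against 0.02 and -0.01 over all probe sets. Without the 2 arrays with neutrophil transcripts fewer list genes were called in the knockout in each direction. That fit kept a single array per knockout group and also called fewer of all probe sets.

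Receptor chains were the largest list, with 20 of 28 tested. Il15ra, the chain that presents IL-15, was higher in CD8α+ cells, by at least 8.15-fold in wild type (adjusted p = 0.00564) and at least 1.91-fold in the knockout (adjusted p = 0.0398), since the CD8α- arrays lay below 5. The wild type bound was 5.22-fold and 12.7-fold from the single CD8α+ arrays. In the knockout 6 receptor chains were called lower and 1 higher, against 8.47% and 7.69% of all probe sets. In wild type 0 were called lower and 1 higher, against 5.74% and 6.98%. The interaction was called for 0 of the 20, so the genotypes were not shown to differ in this. Lower in the knockout were, among others, Il21r (-1.88, adjusted p = 0.0177), Il6st, which encodes gp130 (-1.66, adjusted p = 0.0101), and Il13ra1 (-1.48, adjusted p = 0.0104). These 3 calls held in 5, 6 and 6 of the 8 fits without a single array, and the Il15ra calls in 7 (wild type) and 2 (knockout). With both arrays that carried neutrophil transcripts left out, the knockout changes were -1.53 for Il21r, -1.47 for Il6st, -1.63 for Il13ra1 and 2.27 for Il15ra, with adjusted p of 0.178, 0.111, 0.0812 and 0.120.

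Among 14 tested textbook STAT targets, 1 was higher and 4 lower in wild type CD8α+ cells, and 1 higher and 5 lower in the knockout, beside the same shares of all probe sets (6.98% and 5.74%, 7.69% and 8.47%). Tbx21, the transcription factor T-bet, was lower in CD8α+ cells by at least 14.2-fold in wild type and at least 3.76-fold in the knockout (adjusted p = 0.00145 and 0.00577). The knockout bound rests on CD8α- arrays of 5.97 and 7.85, the second with neutrophil transcripts, and is 1.96-fold from the first alone. With both arrays that carried neutrophil transcripts left out, the knockout change of Tbx21 was -2.68 (adjusted p = 0.0147). The interferon-induced gene Ifit3 was lower by at least 17.2-fold in wild type (adjusted p = 0.00083) and by a log2 change of -4.53 in the knockout (adjusted p = 0.00118). Ifit1, another such gene, was at least 3.83-fold and at least 5.77-fold lower (adjusted p = 0.00262 and 0.00185), with knockout bounds of 10.3-fold and 3.22-fold from the single CD8α- arrays. Ccl22, a chemokine, was higher, by a log2 change of 4.07 in wild type and by at least 11.2-fold in the knockout (adjusted p = 0.00214 and 0.00157), with bounds of 16.3-fold and 7.66-fold from the single knockout arrays. These 4 genes were called in both genotypes when any single array was left out and without the 2 arrays with neutrophil transcripts.

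**Figure D4:**
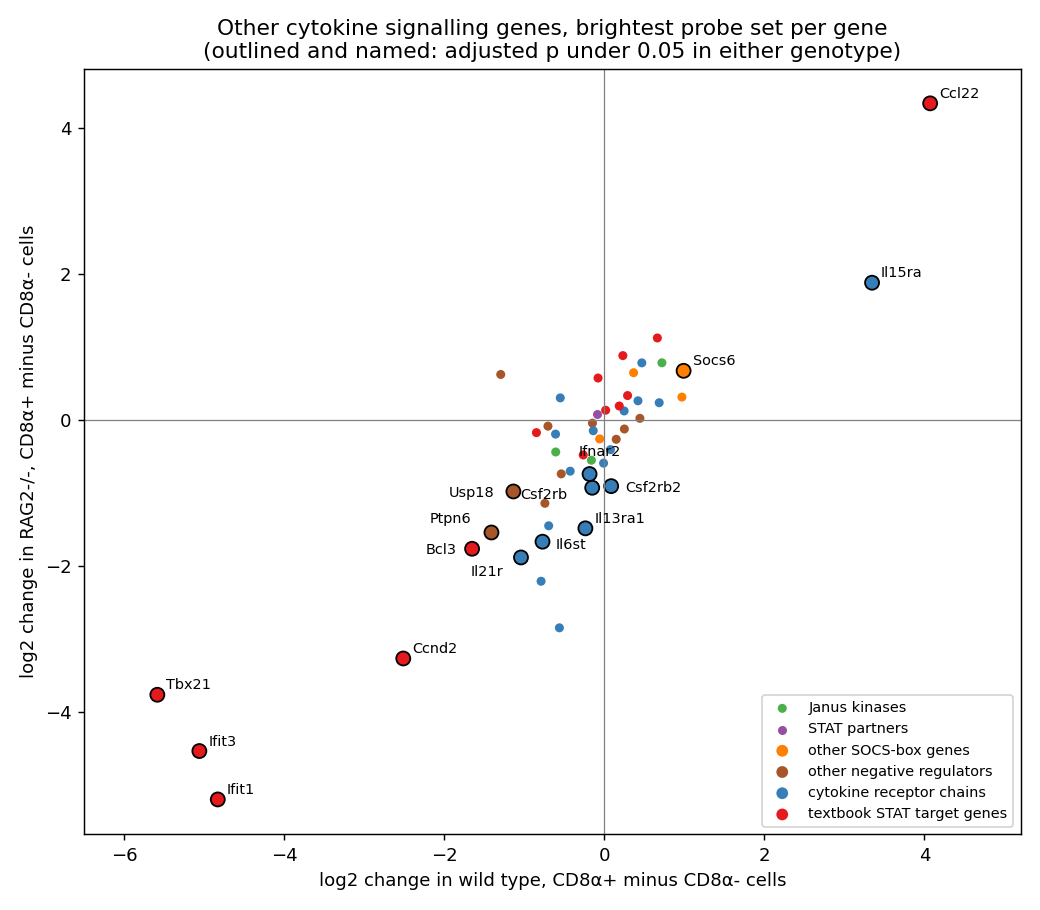
Log2 change between CD8α+ and CD8α- cells of the tested genes of the other cytokine signalling lists, wild type on the horizontal and RAG2-/- on the vertical axis, coloured by list. Tbx21, Ifit3 and Ifit1 lie low in both genotypes and Ccl22 and Il15ra high.

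Of 10 other negative regulators tested, 0 were higher in CD8α+ cells, against 6.98% (wild type) and 7.69% (knockout) of all probe sets. Against shares of 5.74% and 8.47%, 2 were lower in each genotype. They were the phosphatase Ptpn6 (-1.41 and -1.54, adjusted p = 0.0284 and 0.0187) and Usp18, which restrains interferon receptor signals (-1.14 and -0.97, adjusted p = 0.0258 and 0.0378). With both arrays that carried neutrophil transcripts left out, the changes were -1.41 and -1.19 for Ptpn6 (adjusted p = 0.0694 and 0.175) and -1.14 and -1.41 for Usp18 (adjusted p = 0.0260 and 0.0379). Of the 8 fits without a single array, the Ptpn6 calls held in 3 and 5 and the Usp18 calls in 4 and 2. Of the other SOCS-box genes, Socs6 was higher in wild type CD8α+ cells (0.99, adjusted p = 0.0352), a call that held in 1 of the 8 fits without a single array. Of 3 tested Janus kinases limma called 0 between the subsets in either genotype. Unadjusted limma p was under 0.05 for 2 in wild type and 1 in the knockout, against 25.4% and 31% of all probe sets. The averaged subset comparison, added after the data were seen, called Tyk2 higher (0.75, limma adjusted p = 0.0171) and Jak2 lower (-0.52, 0.036). The shares of all probe sets were 13.1% and 12.2%. Neither call held in all fits without a single array.

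Between genotypes 13 list genes were higher and 3 lower in knockout CD8α- cells, against 19.1% and 16.6% of all probe sets. In CD8α+ cells 13 were higher and 9 lower, against 16.7% and 17.3%. Centring gave 27 higher and 0 lower, and 28 higher and 1 lower, against 47.3% and 5.81%, and 44.2% and 5.77%, of all probe sets. Leaving out both arrays with neutrophil transcripts, fewer list genes were called in CD8α+ cells in each direction and nearly as many in CD8α- cells. That fit kept a single array per knockout group and also called fewer of all probe sets in both subsets. The share of all probe sets called higher in both subsets was not determined. On the deposited scale 10 genes were higher in both subsets. They were the kinases Jak1 (1.48 and 1.10, adjusted p = 0.0153 and 0.0421) and Tyk2 (0.83 and 0.90, adjusted p = 0.0339 and 0.0275), and the STAT targets Irf7 (3.32 and 3.45, adjusted p = 0.00391 and 0.00367) and Pim1 (1.54 and 2.0, adjusted p = 0.0258 and 0.0116), together with the STAT target Ifit3 (1.54 and 2.08), the receptor chains Ifnar1 (1.05 and 0.93), Ifngr1 (1.13 and 1.45) and Csf2ra (1.11 and 0.67), and the regulators Pias1 (1.36 and 0.95) and Socs6 (1.30 and 0.98). Ifit3 lay below 5 in wild type CD8α+ cells, so its change there was at least 2.16-fold. Socs6 read an identical 7.327 on both knockout CD8α- arrays, against 5.949 and 6.115 in wild type. Identical readings also stood for Ccl22 on both knockout CD8α- arrays (4.139) and Csf3r on both knockout CD8α+ arrays (4.885). Whether such repeats are a lower limit of the knockout processing was not tested, so the Socs6 change is uncertain. Of the 10 genes higher in both subsets, Irf7 alone was called in both with each single array left out. Leaving out both arrays with neutrophil transcripts, Irf7 and Ifnar1 were called in both subsets. Jak1 (1.19, adjusted p = 0.0480), Ifit3, Csf2ra, Pias1 and Socs6 were then called in CD8α- cells only, Pim1 (2.31, adjusted p = 0.0270) and Ifngr1 in CD8α+ cells only, and Tyk2 in neither (0.75 and 0.92, adjusted p = 0.140 and 0.101). Irf9, the partner of Stat2, was 0.84 higher in knockout CD8α+ cells (adjusted p = 0.0304), against 0.0651 with quantile normalization and 0.0801 without those arrays. Socs7 was lower in both subsets (-1.13 and -0.85, adjusted p = 0.0133 and 0.0361), and with centring neither was called (-0.48 and -0.17). The CD8α+ change of Socs7 without those arrays was -0.54 (adjusted p = 0.118). Csf3r, a receptor chain of neutrophils, was at least 4.25-fold higher in knockout CD8α- cells (adjusted p = 0.0167), with 8.15 on the array with neutrophil transcripts and 6.03 on the other, from which alone the bound is 2.04-fold.

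Likeness was read for the members whose brightest probe set was called between subsets or genotypes, which leaves out Socs2 and Stat3. The genes most like them in pattern over the 8 arrays were sought among 8762 other genes. The measure was the root mean square difference after centring each gene on its own mean. For Stat4 they were Rras2 (0.25), Mefv (0.26) and Abhd15 (0.31). For Stat5b they were Ctsh (0.07), B230308N11Rik (0.15) and Sh3kbp1 (0.15), and for Stat6 1426353_at Sec61a2 (0.06), Irf3 (0.10) and Tubb5 (0.10). For Socs3 1455899_x_at the nearest were Stk26 (0.27), Bcl3 (0.34) and Ccnd1 (0.35). These are distances on the log2 scale, given as a description.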

How the data were processed

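Each of the 8 Affymetrix arrays read biotin-labelled total RNA of 1 sample of sorted splenic dendritic cells. The authors deposited log2 values, 1 per probe set and array. Wild type arrays were made with GCRMA and affy and knockout arrays with GCRMA, per the submitters' processing notes. Which versions were used, and which arrays were normalized as a batch, is not given in the sources used here. Gene names came from the platform annotation, which can be old: 34945 of 45101 probe sets had 1 gene name, 932 several and 9160 none, and 64 were controls, left out of all tests.

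Values were used as deposited. Probe sets with log2 5 or more on at least 2 arrays were fitted with limma 3.58.1 in R 4.3.3 (group means, plain eBayes, 4 residual degrees of freedom). P-values were 2-sided and adjusted over all probe sets tested. All members are named whatever their values, and of each list up to 3 called genes in each direction per comparison, of which some are named here. Where each array of the dimmer group lay below 5, a fold is given as at least that against 5. The members, lists and tests were chosen with earlier results of these data known. Differences of replicate 2 and 1 correlated between groups with r from -0.259 to 0.145, so the labels' replicate numbers were not taken as pairs. The r of -0.259 was that of the 2 knockout subsets, whose neutrophil transcripts lay on CD8α- replicate 2 and CD8α+ replicate 1. A pairing in crossed order was not tested beyond a block with those numbers exchanged, given below. The number of arrays limits the precision. Other settings were quantile normalization, centring, no filter or log2 7, a floor of 5, an offset of 16, 1 probe set per gene, limma-trend, only the groups compared, a replicate block and leaving out each array. The fit was tested on simulated data. Sequences are from RefSeq GRCm38.p6, and 8 of 9 members had a promoter entry, all but Socs2. Figures used matplotlib 3.10.9 in Python 3.11.15.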

Additional observations from a re-analysis of the deposited data

How the results depend on the processing

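No called member change turned its sign under any setting run. Over the member changes, 559 of 624 fits without 1 array and 842 of 880 others kept their side of the threshold, while 56 and 26 lost a call and 9 and 12 gained one. Where an arm had 1 array left, that array was assumed to vary like the other groups. The cause of the shifts below was not tested. Some settings tested fewer genes or arrays. The setting without a filter tested more, including the 18217 to 18893 probe sets that shared 1 lowest value on each knockout array. Its genotype comparisons therefore set that value against the wild type values, and its genotype counts are not counts of expressed genes.

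Without a filter the probe sets called were 1199 (main 2154) between subsets in wild type, 1487 (main 2737) in the knockout, 28294 (main 6045) and 28132 (main 5749) between genotypes in CD8α- and CD8α+ cells, and 41 (main 5) for the interaction, and the member probe sets called were 0, 1, 11, 13 and, for the averaged subset difference, 1. With 1 probe set per gene the counts were 3548 and 3230 between genotypes, with 1 and 1 members, 21 for the interaction and 2785 (main 4283) for the averaged difference. Without the 2 knockout arrays with neutrophil transcripts, chosen after seeing the data, they were 1676 in the knockout subsets, with 1 member, 10 for the interaction, and 1 member for the averaged difference. A fit of only the groups compared gave 720 in the knockout subsets, with 1 member. Centring gave 8989 (main 6045) between genotypes in CD8α- cells, with 6 members. The interaction count was 12 with quantile normalization, 21 with values below 5 set to 5, 13 with the offset and 1 with the replicate block. With the block numbers of knockout CD8α+ cells exchanged, added after seeing the data, the interaction count was 1 and 1 member was called between the knockout subsets.

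Leaving out 1 array, the counts ranged from 861 to 2139 (members 0 to 2) for the subsets in wild type, 1494 to 2679 (1 to 2) in the knockout, 2564 to 5867 (0 to 3) and 2649 to 6046 (1 to 3) for the genotypes in CD8α- and CD8α+ cells, 0 to 4 (0 to 0) for the interaction and 2808 to 4339 (1 to 4) for the averaged difference.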
